A study of Homo sapiens with 4 samples.

Results

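The regions described here are the IRF3-bound sites that lay near genes without lying at a gene end. They were shared IRF3 ChIP-seq regions in untreated MM1.S cells whose summit was more than 1 kb and at most 10 kb from the nearest end of a RefSeq protein-coding gene. A shared region was a stretch covered by at least 1 peak from each of the 2 IRF3 ChIP replicates, with peaks merged where they overlapped by 1 bp or more. Its summit was that of the peak with the higher fold enrichment over input. Of 32246 shared regions, 5784 met this rule (17.9%, exact 95% binomial interval 17.5 to 18.4%). The summit lay inside the nearest gene in 3126 of them and outside it in 2658. That is 54.0% inside (52.8 to 55.3%), which became 41.2% of 9079 regions when the ends of all RefSeq genes were used in place of those of protein-coding genes. Limiting the distance to 5 kb left 3290 regions. Of those outside, 413 lay within the span of another protein-coding gene. The regions were chosen by the presence of a peak in both replicates, by fold enrichment (for the summit) and by distance, so counts, enrichments and distances of the regions are descriptions with no test.

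IRF3 is a transcription factor of the interferon regulatory factor family. It waits in the cytoplasm until sensors of viral nucleic acid lead to its phosphorylation by TBK1, after which it enters the nucleus and activates interferon beta and antiviral genes at repeated GAAA elements. Sites a few kilobases from an annotated gene end can be enhancers, promoters of alternative transcripts inside a gene, or promoters of non-coding genes that have no place in a list of protein-coding genes. MM1.S is a long-used line of malignant human plasma cells.

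The study held 2 IRF3 ChIP libraries and 2 input libraries, all from untreated MM1.S cells, and the labels do not say whether the replicates came from separate cultures. Differences between the replicates may therefore be technical. Replicate 1 had 38568845 ChIP tags and replicate 2 had 46474586. The authors' peak caller gave each ChIP library its own list against its own input, with 41880 peaks in replicate 1 and 41666 in replicate 2. Fold enrichment is the authors' value for each peak, the ChIP pileup over the local input background at its summit. Paired fold enrichments are given for replicate 1 first and replicate 2 second.

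Only promoter and microRNA sequences from RefSeq (GRCh38.p14) were used, since these give the bases under part of the summits. A promoter window spans 250 bases before and 50 bases after an annotated transcript start. Of 35116 such windows, 231 lay under the summit of a gene-flanking region, and they belonged to 222 genes and 213 regions. The windows are shown because IRF3 summits fell within them, near starts of transcripts that begin inside a gene or belong to a non-coding neighbour. Capitals mark matches on either strand to the motifs searched. IFIT3 and MX1 are interferon-induced antiviral genes, DDX60 encodes an interferon-induced helicase, HNRNPH1 encodes a splicing factor, and DINOL is a p53-induced long non-coding RNA beside CDKN1A. DDX60 was chosen after its values were seen.
IFIT3 internal start, chr10:89332279-89332578, plus strand: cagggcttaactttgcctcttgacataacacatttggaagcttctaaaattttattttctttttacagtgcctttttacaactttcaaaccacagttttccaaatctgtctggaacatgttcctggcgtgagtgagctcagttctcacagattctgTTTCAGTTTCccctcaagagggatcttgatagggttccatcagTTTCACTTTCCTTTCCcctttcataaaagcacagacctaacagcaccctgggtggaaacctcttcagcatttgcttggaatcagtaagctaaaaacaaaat
DDX60 internal start, chr4:168318703-168319002, minus strand: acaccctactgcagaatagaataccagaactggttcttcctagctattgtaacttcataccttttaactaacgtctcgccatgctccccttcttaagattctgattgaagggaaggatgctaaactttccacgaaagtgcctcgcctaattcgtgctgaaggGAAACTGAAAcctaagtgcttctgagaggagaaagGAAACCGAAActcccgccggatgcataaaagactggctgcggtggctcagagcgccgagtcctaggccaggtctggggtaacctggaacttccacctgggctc
MX1 internal start, chr21:41425989-41426288, plus strand: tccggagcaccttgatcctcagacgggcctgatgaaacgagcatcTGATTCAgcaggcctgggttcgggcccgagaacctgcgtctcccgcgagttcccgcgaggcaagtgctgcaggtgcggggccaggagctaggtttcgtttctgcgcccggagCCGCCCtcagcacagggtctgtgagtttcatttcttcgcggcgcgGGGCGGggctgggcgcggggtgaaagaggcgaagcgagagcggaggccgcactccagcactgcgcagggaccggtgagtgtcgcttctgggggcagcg
HNRNPH1 internal start, chr5:179623352-179623651, minus strand: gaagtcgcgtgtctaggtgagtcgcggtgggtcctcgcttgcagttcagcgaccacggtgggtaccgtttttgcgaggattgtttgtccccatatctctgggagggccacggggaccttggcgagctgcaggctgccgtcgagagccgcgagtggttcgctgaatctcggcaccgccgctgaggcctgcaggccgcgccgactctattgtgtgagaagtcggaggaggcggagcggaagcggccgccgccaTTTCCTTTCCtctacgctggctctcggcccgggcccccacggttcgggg
DINOL start, chr6:36678510-36678809, minus strand: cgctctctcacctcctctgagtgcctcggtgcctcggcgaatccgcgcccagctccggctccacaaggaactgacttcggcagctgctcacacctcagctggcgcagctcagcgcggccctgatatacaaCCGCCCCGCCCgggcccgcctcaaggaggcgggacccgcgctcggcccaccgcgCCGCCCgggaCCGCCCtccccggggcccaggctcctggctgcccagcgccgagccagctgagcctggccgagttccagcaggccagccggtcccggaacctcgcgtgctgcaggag

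The IFIT3 window held 2 matches to the interferon response element (GAAA, any 2 bases, GAAA), both read on the minus strand, at bases 157 to 166 and 200 to 209. A match to the ETS-IRF element (GGAA, any 2 bases, GAAA), the form bound by ETS and IRF proteins together, overlapped the second of them at bases 206 to 215. The DDX60 window held 2 interferon response element matches on its own strand, at bases 163 to 172 and 198 to 207. The IRF3 summit lay 132 bp before this start of IFIT3 and 11 bp past that of DDX60. In the MX1 window the capitals are a TGANTCA match (here TGATTCA) and 2 GGGCGG matches (GC box). In that of HNRNPH1 they are an ETS-IRF element match, and in that of DINOL 4 GGGCGG matches. TGANTCA takes in the AP-1 site and looser forms such as TGATTCA. The search fixed 2 bases between the GAAA units, so GAAA pairs with a shorter gap, as in the MX1 window, were not marked. The summit at MX1 lay 44 bp from the start, and relative to the starts shown it lay at -184 bp at HNRNPH1 and at -237 bp at DINOL, minus meaning before the start. A match describes the letters of a window and does not show which protein was bound.

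Sequences of 5 mature microRNAs are shown because their hairpins lay within gene-flanking regions. Capitals mark the seed, bases 2 to 8, which pairs with target transcripts.
hsa-miR-142-3p (chr17:58331245-58331267, minus strand): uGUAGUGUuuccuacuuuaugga
hsa-miR-142-5p (chr17:58331283-58331303, minus strand): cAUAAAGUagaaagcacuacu
hsa-let-7i-5p (chr12:62603691-62603712, plus strand): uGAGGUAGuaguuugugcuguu
hsa-miR-132-3p (chr17:2049929-2049950, minus strand): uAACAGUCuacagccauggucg
hsa-miR-212-3p (chr17:2050290-2050310, minus strand): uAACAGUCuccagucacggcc
miR-142 is a microRNA of blood cells. The miR-132 and miR-212 hairpins lay in a single region near HIC1, and both 3p forms carry the seed AACAGUC. The let-7i seed GAGGUAG is that of the let-7 family.

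Gene-flanking regions were of ordinary strength. Median fold enrichments were 3.92 and 4.39, with the middle of the distribution between 3.01 and 5.31 in replicate 1 and between 3.37 and 6.24 in replicate 2 (quartiles). Those inside the nearest gene had medians of 3.98 and 4.43, and those outside it 3.86 and 4.35. Position relative to the gene span therefore separated the medians by less than the quartile range within each set. Regions within 1 kb of a gene end had medians of 5.34 and 8.04, those 10 to 100 kb away 4.01 and 4.29, and those over 100 kb away 4.02 and 4.14. Gene-flanking regions were thus near the distal classes and below the class at gene ends in both replicates. The gap to the gene ends was wider in replicate 2. Both replicates reached a fold enrichment of 5 in 21.6% of gene-flanking regions, against 53.2% of those within 1 kb of an end.

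**Figure D1:**
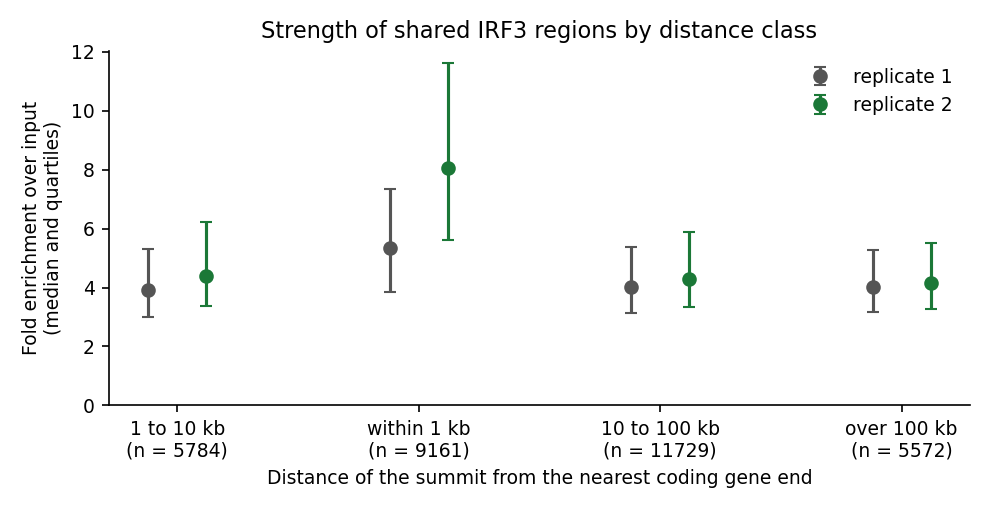
Fold enrichment over input (vertical axis) of shared IRF3 regions in 4 distance classes, as medians (points) and quartiles (bars), for replicate 1 and replicate 2. Regions 1 to 10 kb from a gene end have medians of 3.92 and 4.39, next to the distal classes, and regions within 1 kb have the highest medians in both replicates.

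The 2 replicates placed the summits of a gene-flanking region a median of 55 bp apart, and within 100 bp in 73.6% of regions. Replicate 2 gave the higher value in 65.6% of regions, with a median log2 ratio of 0.20. Across regions the fold enrichments of the replicates had a Spearman correlation of 0.62 and a Pearson correlation of 0.70 on the log2 scale. These correlations are over 5784 regions of the same 2 libraries and share depth and sequence, so they describe the lists and carry no p. Region length had a median of 714 bp, and 90 regions (1.56%) were 3 kb or longer. In 109 regions (1.88%) the region itself reached across the gene end although its summit did not.

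At the limits of the rule, 138 regions had a summit 1001 to 1100 bp from a gene end, with medians of 4.44 and 5.36, and 159 lay 901 to 1000 bp away, with medians of 3.98 and 5.17. There were 41 regions 9901 to 10000 bp away, with medians of 3.92 and 4.02, and 45 regions 10001 to 10100 bp away, with medians of 4.12 and 4.73. Regions just past 1 kb were slightly stronger than those just short of it in both replicates, and regions just short of 10 kb slightly weaker than those just past it. Of the regions found in a single replicate, 1589 of 8164 from replicate 1 (19.5%) and 2107 of 8679 from replicate 2 (24.3%) lay in the same distance range. Their median fold enrichments were 3.01 and 3.11, lower than those of the shared regions, and 54.9% and 54.4% of them lay inside the nearest gene.

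Gene-flanking regions were denser inside genes next to their starts than anywhere else in the 1 to 10 kb range. The whole range held 13.5 regions per Mb inside genes (231 Mb) and 11.9 per Mb outside (224 Mb). A start was given in the RefSeq table used here for 15843 of 20037 protein-coding genes (79.1%), and 4647 regions lay next to such a gene. Of these, 61.5% (exact 95% interval 60.1 to 62.9%) were on the start side. Inside genes, the start side held 1729 regions at 18.4 per Mb and the other end 815 regions at 8.87 per Mb. Outside genes, the side upstream of starts held 1128 regions at 12.6 per Mb and the side beyond the other end 975 regions at 11.3 per Mb. Downstream of starts the density was 33.9 per Mb at 1 to 2 kb, 19.2 at 2 to 3 kb and 13.1 at 9 to 10 kb. Upstream of starts it was 14.9 per Mb at 1 to 2 kb and 10.9 at 9 to 10 kb. The gradient with distance was thus steeper within genes than upstream of them.

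**Figure D2:**
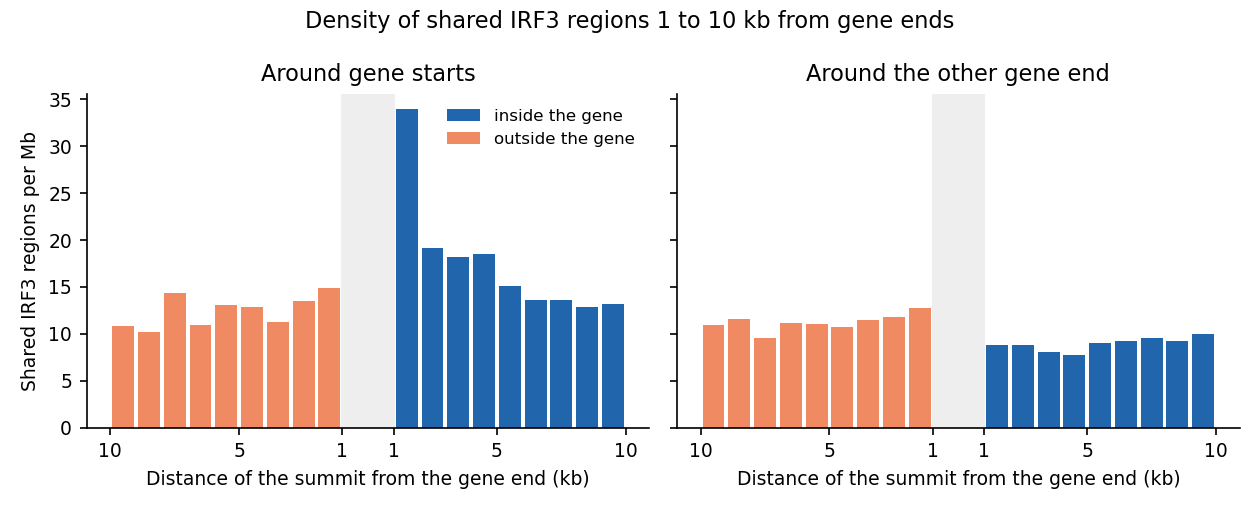
Shared IRF3 regions per Mb (vertical axis) by distance of the summit from the gene end in 1 kb bins (horizontal axis), around gene starts and around the other gene end, inside and outside the gene. The grey band is the excluded first 1 kb on each side, and the highest bar is 33.9 regions per Mb at 1 to 2 kb inside the gene from its start.

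About 1 in 5 gene-flanking regions had another annotated element within 1 kb of its summit. Each region was given its first match in the order named here. By this, 105 regions (1.82%) lay near a small RNA gene and 509 (8.80%) near a long non-coding RNA gene end. A further 498 (8.61%) lay near an internal start of a protein-coding gene and 93 (1.61%) near a pseudogene end. Counted without the order, 527 lay near a long non-coding RNA gene end, 600 near an internal start and 111 near a pseudogene end. The other 4579 (79.2%) had none of these. Internal starts could be found only for the 79.1% of protein-coding genes with a start in the RefSeq table used here. Of the sequence 1 to 10 kb from coding gene ends, small RNA genes took 0.467%, long non-coding RNA ends 3.15%, internal starts 0.905% and pseudogene ends 2.02%. The share of regions was thus larger than that of the sequence for internal starts, long non-coding RNA ends and small RNA genes, and smaller for pseudogene ends. Inside genes the internal starts accounted for 429 regions (13.7%), and outside genes for 69 (2.596%). Long non-coding RNA ends accounted for 210 regions inside (6.72%) and 299 outside (11.2%).

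Internal starts and long non-coding RNA ends made up a larger share of the stronger regions. Regions near internal starts had median fold enrichments of 4.81 and 6.79, those near long non-coding RNA ends 4.27 and 5.50, and those near small RNA genes 4.19 and 5.57. Regions near none of the annotations had medians of 3.82 and 4.16. All of these sets overlapped widely. When regions were put into 5 equal classes by the worse of their ranks in the 2 replicates, the strongest class held 19.2% near internal starts, 13.7% near long non-coding RNA ends and 62.4% near no annotation. The weakest class held 3.89% near internal starts, 6.40% near long non-coding RNA ends and 86.1% near no annotation. The share near small RNA genes was 2.85% in the strongest class, 1.21% in the fourth and 2.07% in the weakest, and the share near pseudogene ends lay between 1.21% and 1.99% in the 5 classes, with no steady order in either. Among the 20 strongest regions, by first match, 9 lay near a small RNA gene, 3 near a long non-coding RNA, 4 near an internal start and 4 near none of these.

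**Figure D3:**
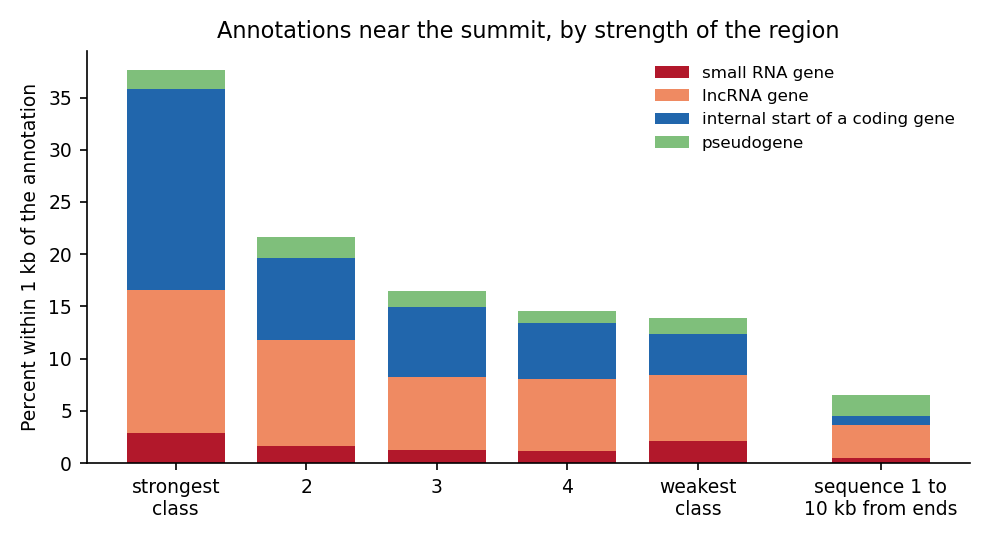
Percent of gene-flanking regions (vertical axis) with each kind of annotation within 1 kb of the summit, in 5 classes from the strongest to the weakest by rank in both replicates, with the share of the sequence 1 to 10 kb from gene ends at the right. Internal starts make up 19.2% of the strongest class and 3.89% of the weakest.

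**Figure D4:**
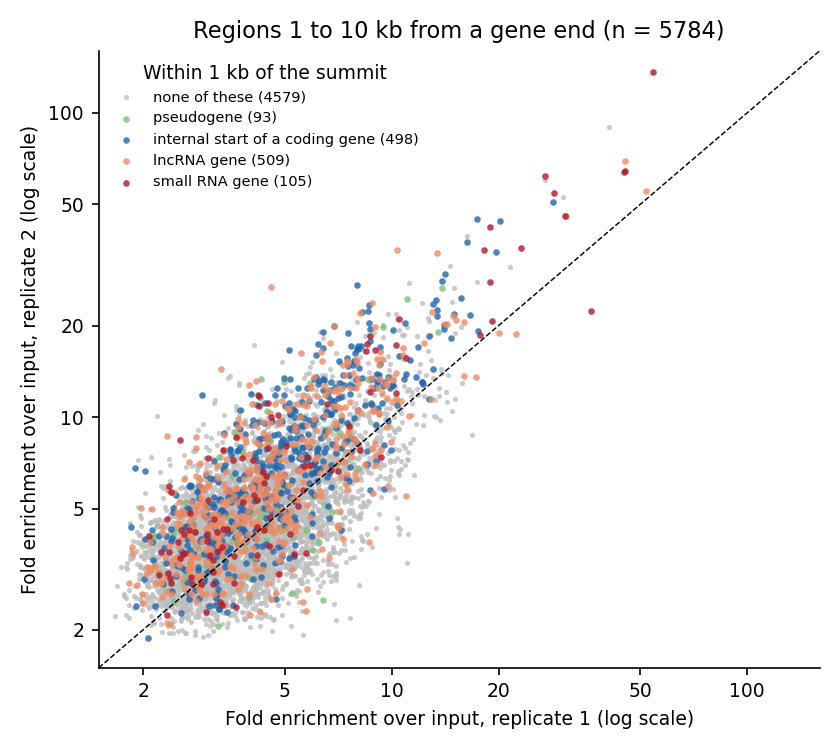
Fold enrichment over input of each gene-flanking region in replicate 1 (horizontal, log scale) and replicate 2 (vertical, log scale), coloured by the first annotation within 1 kb of the summit, with a dashed line of equality. Points near small RNA genes and internal starts are frequent at the upper right, and most regions near no annotation lie between 2 and 10 in both replicates.

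Of the 10 strongest regions outside genes, 8 had a small RNA gene or an end of a long non-coding RNA gene within 1 kb of the summit, and the regions at DBNDD1 and HMOX1 did not. The first of all 32246 shared regions by rank, with fold enrichments of 54.3 and 136, lay on chromosome 1 (148521935 to 148523985) 8.62 kb from NBPF14, and its summit was 5 bp from RNVU1-27, a variant U1 small nuclear RNA gene. RNVU1-14, near NBPF20, had 45.5 and 64.2, and RNVU1-15, near NBPF15, had 45.1 and 63.7. U1 small nuclear RNA recognises splice sites. The RNVU1 genes and the NBPF genes beside them are near-identical copies, so reads may have been placed at the wrong copy and these values are uncertain. The summit of the region near FRMD8 lay 217 bp from an end of NEAT1, the RNA scaffold of paraspeckles, and had 45.4 and 69.3. The region near TSPOAP1, 91 bp from an end of MIR142HG, the host gene of miR-142, had 52.0 and 55.5.

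Small nucleolar RNA genes, whose products guide chemical changes of ribosomal RNA, stood beside 3 further leading regions outside genes. Small RNA genes came first in the order of matches. An end of a long non-coding RNA gene near these summits would therefore not have been named. The region near TRNAU1AP, 728 bp from SNORA16A, had fold enrichments of 28.7 and 54.7. That near TEX2, 57 bp from SNORD104, had 26.9 and 61.9, and that near PRSS12, 350 bp from SNORA24, had 23.2 and 35.9. Across all 105 regions near small RNA genes, 11 were near small nuclear RNA genes, with medians of 18.2 and 20.7, and 14 near small nucleolar RNA genes, with medians of 6.89 and 8.23. The 40 near microRNA genes had medians of 4.36 and 5.19, and the 34 near transfer RNA genes 3.14 and 4.11. The small nuclear RNA regions were the strongest of these groups and the transfer RNA regions the weakest in both replicates. TERC, the RNA template of telomerase, lay 62 bp from a summit with 8.72 and 18.5.

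Regions at HMOX1 and DBNDD1 were strong without any of these annotations nearby. Neither gene had a start in the RefSeq table used here, so an internal start of either could not be found. HMOX1 encodes heme oxygenase, whose upstream enhancers are known targets of AP-1, NRF2 and BACH1. A region 9.01 kb from its nearest end, on chromosome 22 (35371422 to 35372483), had fold enrichments of 30.4 and 53.1. A second region at HMOX1, 3.99 kb away and named after its values were seen, had 15.01 and 26.5. Both HMOX1 regions lay outside the gene on the same side, and a shared region also lay within 1 kb of that end. The region 9.66 kb from DBNDD1, on chromosome 16 (89994515 to 89996314), had 40.9 and 90.0.

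Inside genes, the regions best ranked were at BRD2, RSRP1, BBC3 and TOB1. BRD2, a bromodomain reader of acetylated histones, had a region of 5377 bp with fold enrichments of 28.4 and 51.1, whose summit lay 668 bp from an internal start. RSRP1 had 26.9 and 60.1 with no annotation nearby. BBC3, which encodes the pro-apoptotic protein PUMA, had 30.8 and 45.9 in a region that also held the hairpins of miR-3190 and miR-3191. TOB1, an antiproliferative gene, had 30.9 and 45.7, 387 bp from an end of its antisense gene TOB1-AS1. All 4 were above the upper quartile of gene-flanking regions in both replicates, as follows from their choice by rank.

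For 3 of the 10 leading regions inside genes the summit lay within 100 bp of an internal start, 86 bp at HNRNPH1 (from another start than the one of the window shown), 73 bp at the kinase gene SGK1 and 71 bp at SLC3A2, the heavy chain of the CD98 amino acid transporter. HNRNPH1 had fold enrichments of 20.1 and 44.2, SGK1 19.6 and 35.0, and SLC3A2 16.3 and 37.6. GTF2A1, a subunit gene of the general factor TFIIA, had 17.4 and 27.8, HTRA3, a serine protease gene, 16.3 and 39.3, and ARPC5L, an actin-nucleation gene, 14.8 and 23.9, all with no such annotation nearby. Replicate 2 was the higher one at each of these 6 genes.

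Of the microRNAs with both a hairpin and a mature sequence in the RefSeq table used here, chromosome 8 aside, 21 had a hairpin that overlapped a gene-flanking region, 19 regions in all. The miR-142 hairpin lay in the TSPOAP1 region described above, 1111 bp from its summit. The let-7i hairpin near MON2 lay in a region with fold enrichments of 10.3 and 12.04. The region of miR-132 and miR-212 near HIC1 had 3.81 and 5.27, with its summit on the miR-212 hairpin. The lowest of the 19 regions in both replicates, at the miR-6073 hairpin inside SOX6, had 3.34 and 2.42, so these regions reached from the leading ones to ones below the median.

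Gene-flanking regions near a gene start usually had a shared region at that start as well. Here and below, a region counted as at an end, or within 1 kb of it, by its summit alone. The same gene end held a shared region within 1 kb for 2305 of 5784 (39.9%, exact 95% interval 38.6 to 41.1%), and for 19.7% of the 1251 with a fold enrichment of at least 5 in both replicates when the region at the end had to reach 5 too. On the start side this was 60.7% inside the gene and 61.8% outside it. On the side of the other gene end it was 7.36% inside and 8.82% outside. Over all genes with a known start, 51.1% of starts and 4.46% of the other ends had such a region, so both sides of gene-flanking regions were somewhat above the level over all genes. Neither end was occupied for 38.4% of gene-flanking regions, against 41.2% of regions 10 to 100 kb away and 52.5% of those over 100 kb away. Regions near an internal start had neither end occupied in 54.8% of cases.

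The nearest other shared region lay a median of 5903 bp from a gene-flanking region, and within 5 kb for 44.2% of them. The median gap was 16637 bp for regions within 1 kb of an end, 13034 bp for those 10 to 100 kb away and 29413 bp for those farther. Gene-flanking regions therefore had the closest neighbours of the 4 classes. Among chromosomes with more than 1 shared region, the gene-flanking share ran between 12.3% on chromosome 18 and 28.3% on chromosome 19, which is rich in genes.

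Of 20037 protein-coding genes, 4227 had at least 1 gene-flanking region (21.1%), and 1125 had one with a fold enrichment of at least 5 in both replicates. An inside region was found for 2526 genes (12.6%) and an outside one for 2211 (11.0%). For comparison, 10025 genes (50.0%) had a shared region within 1 kb of an end. These shares are counted differently. A gene-flanking region counted for the gene with the nearest end alone. A region within 1 kb counted for every gene with an end there. There were 1681 genes (8.39%) with a gene-flanking region and none at an end, and 322 (1.61%) with 3 or more gene-flanking regions. An end was occupied for 60.2% of genes with a gene-flanking region, against 47.3% of genes without one.

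SMAD7, an inhibitor of TGF-beta signalling, had the most, with 8 regions inside and 2 outside, at fold enrichments of 2.83 to 6.43 in replicate 1 and 2.34 to 6.98 in replicate 2. The 10 regions at SMAD7 were thus many but not strong. BCAS1, FAM78A and SEC14L1 had 7 each. Genes with 6 were CHMP4B and VPS37B, both ESCRT membrane-sorting subunits, IKZF1, RAB30, SELPLG, SH2B2 and TNFRSF13B. IKZF1 encodes Ikaros, the lymphoid factor that cereblon-binding drugs degrade, and its 6 regions had 2.53 to 4.997 in replicate 1 and 2.98 to 6.44 in replicate 2. No shared summit lay within 1 kb of either end at IKZF1, SELPLG, SH2B2, TNFRSF13B, BCAS1 and FAM78A. At SELPLG and TNFRSF13B, however, the strongest region itself reached across a gene end. At IKZF1 a region began at 50303615, close to the gene end at 50303455. SELPLG, the P-selectin ligand of leukocytes, held the strongest single region of the group, 18.9 and 42.1, with its summit 53 bp from MIR4496. TNFRSF13B encodes TACI, a receptor for plasma-cell survival factors, and its strongest region had 7.77 and 13.1.

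Lists of genes were then read against the 21.1% of all protein-coding genes. Among 41 plasma cell and myeloma genes 28 had a gene-flanking region (68.3%, exact 95% interval 51.9 to 81.9%), among 33 NF-kB pathway genes 19 (57.6%, 39.2 to 74.5%) and among 37 immediate-early genes 20 (54.1%, 36.9 to 70.5%). The share was 16 of 34 for both apoptosis genes and unfolded protein response genes (47.1%). It was 14 of 34 for nucleic-acid sensing genes (41.2%, 24.6 to 59.3%) and 26 of 65 for interferon-stimulated genes (40.0%, 28.0 to 52.9%). The 9 IRF genes, with 5 (55.6%, 21.2 to 86.3%), were few. The shares of all these lists were higher than that over all genes, though the interval of the IRF genes began at 21.2%. Interferon and chemokine genes had 8 of 31 (25.8%, 11.9 to 44.6%), B cell genes 9 of 29 (31.0%), MHC class I genes 5 of 22 (22.7%), MHC class II genes 2 of 13 (15.4%), skeletal and heart muscle genes 6 of 34 (17.6%) and neuronal genes 4 of 34 (11.8%). These shares lay on both sides of 21.1%, and their intervals included it. Large ribosomal subunit genes all had a region at an end, 45 of 45, yet 9 (20.0%) had a gene-flanking one. Intervals cover counting error alone, and the lists were chosen with earlier results of these data known. No list was tested against all genes.

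**Figure D5:**
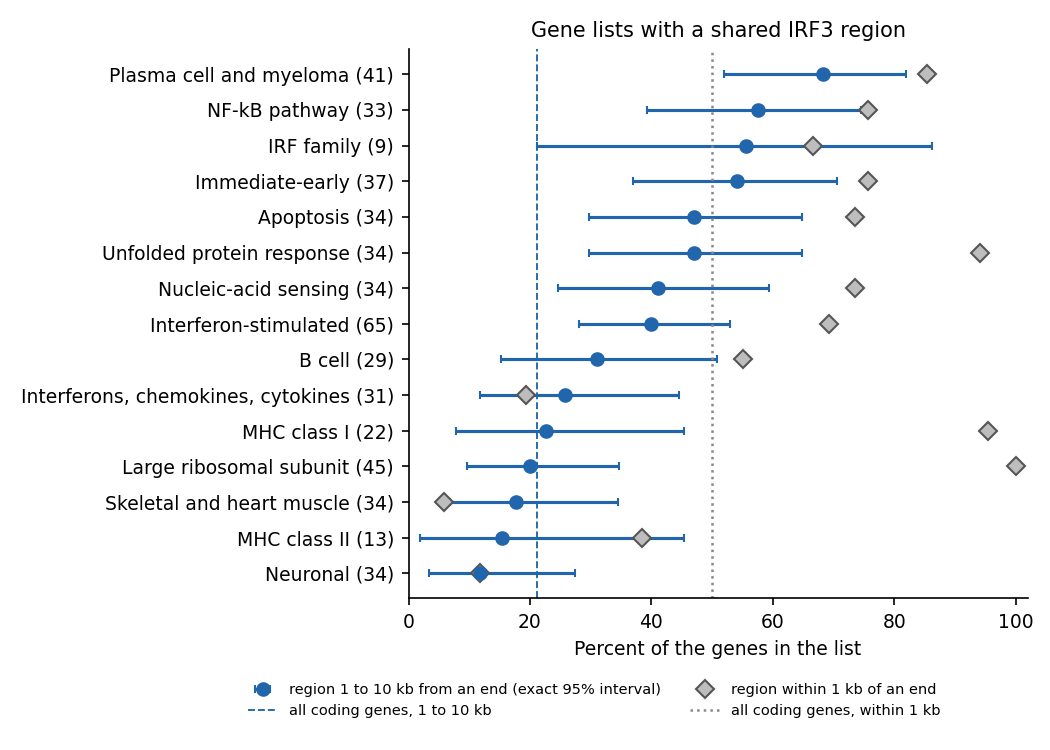
Percent of the genes of each list (number in brackets) with a gene-flanking IRF3 region (circles, with exact 95% intervals) and with a region within 1 kb of an end (diamonds). Dashed and dotted lines give the same shares over all coding genes, 21.1% and 50.0%, and plasma cell and myeloma genes have the highest gene-flanking share, 68.3%. Circles count a region for the gene with the nearest end alone, and diamonds for every gene with an end within 1 kb.

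Of the 9 interferon regulatory factor genes, 5 had gene-flanking regions, 13 regions in all. IRF1, an interferon-induced activator, had 1 inside and 3 outside, the best ranked at 9.24 and 7.396, lying 6.03 kb upstream of its start. IRF4, the plasma cell factor on which myeloma cells depend, had 3 inside and 1 outside, between 3.65 and 4.35 in replicate 1 and between 3.67 and 5.32 in replicate 2. IRF2 had 1 of each, with 11.4 and 11.1 for the one outside. IRF5 and IRF8, the lymphoid and myeloid members, had no summit within 1 kb of an end. The region inside IRF5 (128937476 to 128941450) nevertheless began within 1 kb of the gene start at 128937032. The IRF5 region inside the gene, 80 bp from an internal start, had 6.18 and 7.58, and a region upstream had 5.69 and 4.39. The IRF8 region, 68 bp from an internal start, had 3.78 and 4.20. IRF3, IRF7 and IRF9 were among the genes with none.

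Among interferon-stimulated genes, DDX60 and ISG20 had strong gene-flanking regions. The 28 regions of that list had medians of 3.63 and 4.31, below the 3.92 and 4.39 of all gene-flanking regions. DDX60 had 10.1 and 12.7 at its internal start and no region at an end. ISG20, an antiviral exonuclease, had 6.13 and 16.1, with its summit 61 bp from an internal start. IFIT3 had 2 inside, with 5.34 and 5.65 at 6.19 kb and 3.50 and 4.22 at 4.40 kb, the second one at the internal start shown above. MX1 had 6.10 and 6.58 at 5.73 kb from its start. IFIT2 had a weak region outside, with 1.81 and 3.31. IFIT1, ISG15 and OASL had no gene-flanking region. The enrichments at DDX60, ISG20 and MX1 were above the upper quartile of gene-flanking regions in both replicates, and that of IFIT2 was below the lower quartile in both.

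Of the 8 interferon and chemokine genes with a gene-flanking region, 7 had one outside the gene and 1 inside, against 2211 and 2526 of the 4227 such genes overall. A summit inside a gene must lie more than 1 kb from both ends to count. Short genes such as CCL3 (36088256 to 36090143) and CCL4 (36103827 to 36105614) therefore cannot have an inside region. Gene length was not taken into account in this comparison. CXCL10, a chemokine that draws T cells, had a region 4.72 kb beyond its far end with 7.12 and 9.24, and none at an end. CCL3 had 4.96 and 6.78 upstream, CCL4 had 2.58 and 3.50, and CCL5 had 3.34 and 2.29 inside the gene. IL10 had 3.93 and 4.34. IFNB1, the classical IRF3 target, had none within 10 kb, its nearest summit being 15.7 kb away. CXCL9 and CXCL11 had none, the CXCL10 summit being 8.89 kb from CXCL9. The CXCL10 region was the strongest of this list in both replicates.

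Of the sensors and adaptors that lead to IRF3, IFIH1, MAVS and CGAS each had 1 gene-flanking region outside the gene. MAVS, the mitochondrial adaptor of RNA sensing, had 3.82 and 3.91, IFIH1, the RNA sensor MDA5, had 3.14 and 4.45, and CGAS, the DNA sensor, had 2.92 and 3.06. STING1, TBK1 and RIGI had none. The strongest region of the sensing list was at HMGB1, a chromatin protein that can act as an alarm signal, with 13.4 and 24.2, and UNC93B1, a chaperone of Toll-like receptors, had 10.2 and 9.08. Sensor regions were near the median of gene-flanking regions or below it, and those at HMGB1 and UNC93B1 were above its upper quartile.

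Of the plasma cell genes, CD38, TENT5C and IKZF3 had strong gene-flanking regions. The 58 regions of the plasma cell and myeloma list had medians of 3.76 and 4.01, below the 3.92 and 4.39 of all gene-flanking regions. CD38, an ectoenzyme and antibody target in myeloma, had 15.7 and 19.8 at 6.84 kb inside the gene from its start. TENT5C, a poly(A) polymerase mutated in myeloma, had 10.5 and 16.0 beyond its far end, and IKZF3, which encodes Aiolos, had 9.80 and 14.3. SDC1, which encodes CD138, had 3 regions, the strongest at 5.57 and 5.96, and SLAMF7 had 4, the strongest at 6.13 and 3.98. PRDM1, the regulator of plasma cell fate, had 4, the strongest at 7.29 and 8.09. POU2AF1 had 2, with 7.76 and 4.95 for the stronger, TNFRSF17, which encodes BCMA, had 1 with 6.38 and 4.41, and XBP1 and MYC had none. CD38, TENT5C and IKZF3 were well above the upper quartile in both replicates. The strongest regions of SDC1, SLAMF7, PRDM1, POU2AF1 and TNFRSF17 were above it in replicate 1. In replicate 2 only that of PRDM1 was above it, and that of SLAMF7 was below the median.

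TNFAIP3, the A20 inhibitor of NF-kB, had 4 gene-flanking regions and no summit within 1 kb of an end. The strongest, with 10.1 and 13.3, had its summit 1.02 kb from the start, 18 bp past the limit, and the region itself, at 137866218 to 137869221 on chromosome 6, covered the start at 137866349. TAB3, an adaptor of the kinase TAK1, had 12.9 and 15.4, in a region inside the gene. Of apoptosis genes, BAK1 had 9.48 and 20.1 and BID 7.47 and 14.9, both outside the gene and both named for their rank. The 31 regions of the apoptosis list had medians of 3.62 and 4.40. The anti-apoptotic BCL2, named as a single gene whatever its rank, had 2.34 and 2.78, and another summit lay 0.281 kb from an end of it. Of immediate-early genes, NR4A3 had 8.16 and 21.98 and ZFP36L1 7.998 and 27.3. At NR4A3, which encodes an orphan nuclear receptor, and ZFP36L1, which encodes a factor of mRNA decay, replicate 2 exceeded replicate 1 by more than the median ratio over gene-flanking regions.

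Among other lists, DERL3 and CRELD2, both genes of the endoplasmic reticulum, had 8.52 and 8.10 and 5.50 and 8.41. B2M, the light chain of MHC class I, had 9.15 and 7.50 beyond its far end, and HLA-DMB had 11.5 and 8.47 upstream. RPL6, a ribosomal protein gene, had 12.8 and 18.5 at 185 bp from an internal start. Of B cell genes, the lipid receptor gene S1PR2 had 8.70 and 7.99, the co-stimulatory receptor gene CD40 7.86 and 7.01 and the kinase gene BLK 5.64 and 6.74. Genes that plasma cells are not known for also had regions, with 5.33 and 7.35 at the heart myosin gene MYL2, 4.91 and 4.90 at TTN and 8.91 and 8.26 at the synaptic gene SYP. Whether a region belongs to the nearest gene was not tested.

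Motifs were counted in the 231 promoter windows under gene-flanking summits, on both strands, against the 2256 windows under summits within 1 kb of a gene end and all 35116 windows. Their GC content was 63.8%, 66.8% and 57.5%. The interferon response element was found in 11 windows (4.76%, exact 95% interval 2.40 to 8.36%), against 3.10% of gene-end windows and 3.57% of all windows. The interval held both of these shares. The ETS-IRF element was in 3.46%, against 3.28% and 2.82%. TGANTCA was in 23 windows (9.96%, 6.42 to 14.6%), against 3.55% of gene-end windows and 7.71% of all, so its interval lay above the share of gene-end windows and held that of all windows.

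The GC box GGGCGG was in 61.0% of windows under gene-flanking summits, against 73.1% of gene-end windows and 45.0% of all. CCAAT was in 23.8%, against 26.2% and 34.6%, the E-box CACGTG in 8.23%, against 9.97% and 7.26%, and TGACGTCA in 2.597%, against 3.77% and 1.85%. The core of the CTCF motif (GCC, any 2 bases, CTGGTGG) was in none, against 0.310% and 0.285%. Windows of alternative starts of a gene overlap in part, and the 231 windows stand for 213 of 5784 regions, those at annotated starts. GC content differed between the sets, and its part in these shares was not tested.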

How the data were processed

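Formaldehyde-fixed MM1.S chromatin was sheared and precipitated for IRF3, per the labels' protocols. The submitters' processing notes name build GRCh38 and the tools MACS2 2.1.1, deepTools 3.3.1, SAMtools 1.2, Picard 2.6.0 and BWA 0.7.15, without their roles. Narrow peaks were made by the authors with MACS2 2.1.2, per the file headers, in each ChIP library against its own input, at a q-value cutoff of 0.05, with tags of 74 bp and fragments of 267 and 251 bp, and all duplicates were kept. The deposited fold enrichment is a ratio of ChIP to local input at the summit, made by the authors. The deposited pileup is a signal, the ChIP coverage at the summit, and was not used for comparisons. The deposited −log10 p and q columns were not used.

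Peaks of both lists were merged with pandas 2.3.3 and numpy 2.4.6 (Python 3.11.15) where they overlapped by 1 bp. Distances ran to the ends of 20037 RefSeq (GRCh38.p14) protein-coding genes on chromosomes 1 to 22, X and Y. Starts, strands, promoter and microRNA sequences came from RefSeq tables of the same assembly, with starts and strands matched by gene identifier. Density used a grid of 100 bp. Regions were ranked by the worse of their 2 within-replicate ranks of fold enrichment. Intervals are exact (Clopper-Pearson, scipy 1.17.1) at 95% and cover counting error only. No test was run, since the rule used the peaks, and figures were drawn with matplotlib 3.10.9. The merging and distance steps were tested on simulated data.

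The members, the 15 gene lists and the 46 single genes were chosen with earlier results of these data known, and 478 of 479 entries of the lists and the single genes matched a RefSeq symbol. Named genes are the 10 highest-ranked regions inside and outside genes, the 8 genes with the most regions (11 through ties at 6), up to 3 of each list by rank, and the single genes. Alternatives left out each replicate, required a fold enrichment of 5 or a larger overlap, took the other summit, and changed the gene ends or limits. Results for some of the listed genes are not reported here.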

Additional observations from a re-analysis of the deposited data

How the results depend on the processing

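Of 40 alternative values, 20 stayed within the counting interval or 1.5 times the count and 20 did not. A larger required overlap and the other peak's summit changed none of the results beyond that. With a fold enrichment of 5 in both replicates there were 1251 regions (12.9% of shared ones) at 1125 genes, 56.8% of them inside the nearest gene and 19.7% with the same end occupied, where the regions at the end were held to the same minimum. With the ends of all RefSeq genes there were 9079 regions (28.2%), 41.2% inside. Limiting the distance to 5 kb left 3290 regions (10.2%). Counting the span of any coding gene put 61.2% inside. With 500 bp for an occupied end the share was 34.9%. Without regions within 1 kb of a non-coding gene end, pseudogene end or internal start, chosen after seeing the data, 58.0% were on the start side and 41.4% had the same end occupied.

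Leaving out each replicate in turn, so that the peaks of the other stood alone, gave 7940 and 8117 regions (19.0 and 19.5% of peaks) at 5318 and 5370 genes, with 54.6 to 55.5% inside, 62.1 to 63.2% on the start side and 45.2 to 45.4% with the same end occupied. No paired analysis was possible because no test was run and the input libraries enter through the peak calls alone. A q-value cutoff of 0.05 and the depth of 2 libraries set which weak regions were called, so a gene without a region had none detected at this depth.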
